A study of Mus musculus with 5 samples.

Results

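The 10 miRNA entries described here are arms of the miR-290 to miR-295 cluster: mmu-miR-290a-5p, mmu-miR-291a-5p and mmu-miR-291a-3p, mmu-miR-292-5p and mmu-miR-292-3p, mmu-miR-291b-5p and mmu-miR-291b-3p, mmu-miR-293-3p, mmu-miR-294-3p and mmu-miR-295-3p (the prefix mmu, for mouse, is left out below). They were chosen by name from 1316 miRNA entries, and 4 further entries of the same hairpins (miR-290a-3p, miR-293-5p, miR-294-5p and miR-295-5p) are given beside them. Small RNAs of 18 to 32 nucleotides had been sequenced from 5 kinds of mouse cell, with 1 library each. Primordial germ cells came from male gonads of CD-1 fetuses at day 13.5 and had been taken with beads against CD15. Spermatogonia came from CD-1 testes at postnatal day 8.5, after somatic cells had been left to settle and adhere, and spermatozoa from CD-1 males, out of the cauda epididymis and the vas deferens, cleaned on a Percoll gradient. Metaphase II oocytes (15210 cells) came from superovulated C57BL/6 females of 4 to 5 weeks. Zygotes (15416 cells, 15 to 18 hours after fertilization) came from such C57BL/6 females after mating to DBA/6J males. How many animals gave cells to a library is not stated in the labels. With 1 library for each kind of cell, differences between them have no replicate check, no test was made, and strain, sex and preparation cannot be told apart from cell type.

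The miR-290 to miR-295 cluster is known as the most abundant miRNA group of mouse embryonic stem cells, made as 1 long transcript from which the hairpins are cut. Each hairpin can give a mature miRNA from its 5p and its 3p arm. A miRNA pairs with its targets mainly through its seed, bases 2 to 8, and the seed shared by several 3p arms of the cluster is known to lower inhibitors of the cell cycle and to favour the pluripotent state. In the mouse the cluster is also known from the early embryo and from fetal germ cells, and embryos that lack it have fewer germ cells.

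The cluster's 7 hairpins on the plus strand lie on chromosome 7 within 2216 bases (3218626 to 3220841, GENCODE vM21 on GRCm38, the assembly also called mm10). All but Mir290a, 6 in number, lie opposite the untranslated part of an exon of Nlrp12 (3218784 to 3222560, minus strand), and Mir290b and Mir292b, on the minus strand, overlap Mir290a and Mir292. Mature sequences matched in RefSeq (GRCm38.p6) for 9 of the 10 members, with miR-292 listed there as miR-292a. They are shown, 5′ to 3′ with the seed in capitals, because the seeds split the members into groups:
miR-291a-3p: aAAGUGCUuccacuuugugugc
miR-294-3p: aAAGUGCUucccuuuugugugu
miR-295-3p: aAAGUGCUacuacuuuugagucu
miR-291b-3p: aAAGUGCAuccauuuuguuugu
miR-293-3p: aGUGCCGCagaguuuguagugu
miR-290a-5p: aCUCAAACuaugggggcacuuu
miR-292-5p: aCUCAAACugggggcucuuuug
miR-291a-5p: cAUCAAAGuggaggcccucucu
miR-291b-5p: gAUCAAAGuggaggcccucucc

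The 3p arms of miR-291a, miR-294 and miR-295 share the seed AAGUGCU, and miR-291b-3p has the same bases 2 to 7. The 5p arms of miR-290a and miR-292 share CUCAAAC and those of miR-291a and miR-291b share AUCAAAG. Their positions on the plus strand of chromosome 7 run from miR-290a-5p (3218639 to 3218660) to miR-295-3p (3220815 to 3220837). The closest pair is miR-291a-5p and miR-291b-5p, which differ by C1G and U22C, counted from the 5′ end with the base of miR-291a-5p first. Near-identical entries of this kind can share reads, and the way the authors divided shared reads is not given in the sources used here. Both of these entries held a read number ending in 0.5 in primordial germ cells, and again in the zygote. The 3p arms of miR-291a, miR-291b and miR-294 each ended in 0.733 of a read in primordial germ cells and in 0.667 in the zygote. No miRNA value of the spermatogonia library had such a fraction, against 13.1% to 17.7% of the values above 0 in the other libraries.

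Levels are given in reads per 1000000 reads (RPM), taken over the miRNA reads of the library. The miRNA tables held 12004614 reads for primordial germ cells, 10657432 for spermatogonia, 1216358 for spermatozoa, 2010462 for the oocyte and 2327081 for the zygote. A count of 0 allows up to 3 reads, or 0.250 RPM in primordial germ cells, 0.281 in spermatogonia and 2.47 in spermatozoa, with 1.49 in oocytes and 1.29 in zygotes. Brackets give exact 95% intervals, which cover counting error only, since PCR copies are not independent molecules. In such bulk samples fewer cells that carry a miRNA and less of it per cell cannot be told apart. Marker lists differed between libraries as well. The list of muscle-like cells (miR-143 and miR-145a, 4 of 4 entries with reads everywhere) summed to 9261 RPM in primordial germ cells, 233110 in spermatogonia and 230783 in spermatozoa, with 26563 in oocytes and 20991 in zygotes. Sums ranged over the 5 libraries from 96.7 to 9053 RPM for the endothelial list (2 of 2), 211 to 19438 for the erythroid (3 or 4 of 4), 304 to 3095 for the leukocyte (4 or 5 of 5) and 1071 to 22788 for the epithelial (5 of 5). The part of other cells in the levels below was not tested. At 0 were miR-144-3p in the oocyte and miR-142-5p in oocyte and zygote. The late spermatogenesis list (miR-34b/c and miR-449a, 5 of 5) stood at 235991 RPM in spermatozoa and at 924 to 8291 in the other libraries.

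By miRNA reads, the cluster was highest in primordial germ cells, lower in the egg libraries, low in spermatogonia and close to absent in spermatozoa. The 10 members summed to 41723 RPM in primordial germ cells [41608 to 41839], 1679 in spermatogonia [1654 to 1704] and 62.5 in spermatozoa [49.2 to 78.2], with 5564 in oocytes [5462 to 5668] and 10486 in zygotes [10355 to 10619]. They made up 4.17%, 0.168%, 0.00625%, 0.556% and 1.05% of the miRNA reads in that order of libraries. Scaled to the reads of all 4 small RNA classes together (RPM over miRNA, snoRNA, piRNA and endo-siRNA), the sums were 18856 in primordial germ cells, 679 in spermatogonia and 3.48 in spermatozoa, with 259 in oocytes and 564 in zygotes. On that scale spermatogonia stood above both egg libraries, and by miRNA reads below them. With the deposited normalised column they stood above the oocyte but below the zygote. The sums were then 40.8-fold, 46.7-fold and 14.7-fold under primordial germ cells in spermatogonia, oocyte and zygote. All 10 members had reads in 4 libraries, and 6 had any in spermatozoa.

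The AAGUGCU members are the ones best known from embryonic stem cells, where they promote entry into S phase. miR-291a-3p had 10762 RPM in primordial germ cells, 753 in spermatogonia and 5.75 in spermatozoa, with 1644 in oocytes and 5814 in zygotes. It ranked 18th by reads among miRNAs of primordial germ cells, 25th in the zygote and 55th in the oocyte. miR-295-3p had 10682 RPM in primordial germ cells, 324 in spermatogonia and 20.6 in spermatozoa, with 1265 in oocytes and 1619 in zygotes. In primordial germ cells these 2 did not differ beyond counting error, with a ratio of 1.01 [0.9997 to 1.015]. miR-291a-3p stood 2.33-fold above miR-295-3p in spermatogonia [2.23 to 2.42], 1.30-fold in the oocyte [1.23 to 1.37] and 3.59-fold in the zygote [3.46 to 3.72]. Such ratios within a library are free of the scaling between libraries. miR-294-3p had 3381 RPM in primordial germ cells, 80.2 in spermatogonia and 11.5 in spermatozoa, with 670 in oocytes and 944 in zygotes. miR-291b-3p, with the variant seed, had 780 RPM in primordial germ cells, 4.69 in spermatogonia and none in spermatozoa, with 72.1 in oocytes and 72.9 in zygotes. It was the lowest member in spermatogonia, while miR-290a-5p was the lowest in primordial germ cells and miR-291b-5p in both egg libraries.

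Among the remaining members, miR-292-5p was the highest in primordial germ cells, spermatogonia and the oocyte, and miR-293-3p in spermatozoa. In the zygote these 2 were close, with miR-293-3p at 565 and miR-292-5p at 555 RPM. miR-292-5p had 6462 RPM in primordial germ cells, 175 in spermatogonia and 2.47 in spermatozoa, with 642 in oocytes and 555 in zygotes. Its partner from the same hairpin, miR-292-3p, the member without a printed sequence and put in no seed group, had 815 RPM in primordial germ cells, 66.0 in spermatogonia and 4.11 in spermatozoa, with 544 in oocytes and 512 in zygotes, so that its egg libraries lay nearest to primordial germ cells. miR-293-3p had 3004 RPM in primordial germ cells, 149 in spermatogonia and 18.1 in spermatozoa, with 300 in oocytes and 565 in zygotes. The 5p arms of miR-291a and miR-291b, almost equal in primordial germ cells, were far apart in spermatogonia, oocyte and zygote. miR-291a-5p had 2584 RPM in primordial germ cells, 74.4 in spermatogonia and none in spermatozoa, with 236 in oocytes and 268 in zygotes. miR-291b-5p had 2742 RPM in primordial germ cells, 31.1 in spermatogonia and none in spermatozoa, with 18.9 in oocytes and 34.2 in zygotes. For miR-291b-5p the oocyte was therefore below spermatogonia, and the zygote and spermatogonia did not differ beyond counting error (ratio 1.10 [0.856 to 1.42]). miR-290a-5p had 513 RPM in primordial germ cells, 20.6 in spermatogonia and none in spermatozoa, with 172 in oocytes and 103 in zygotes.

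**Figure D1:**
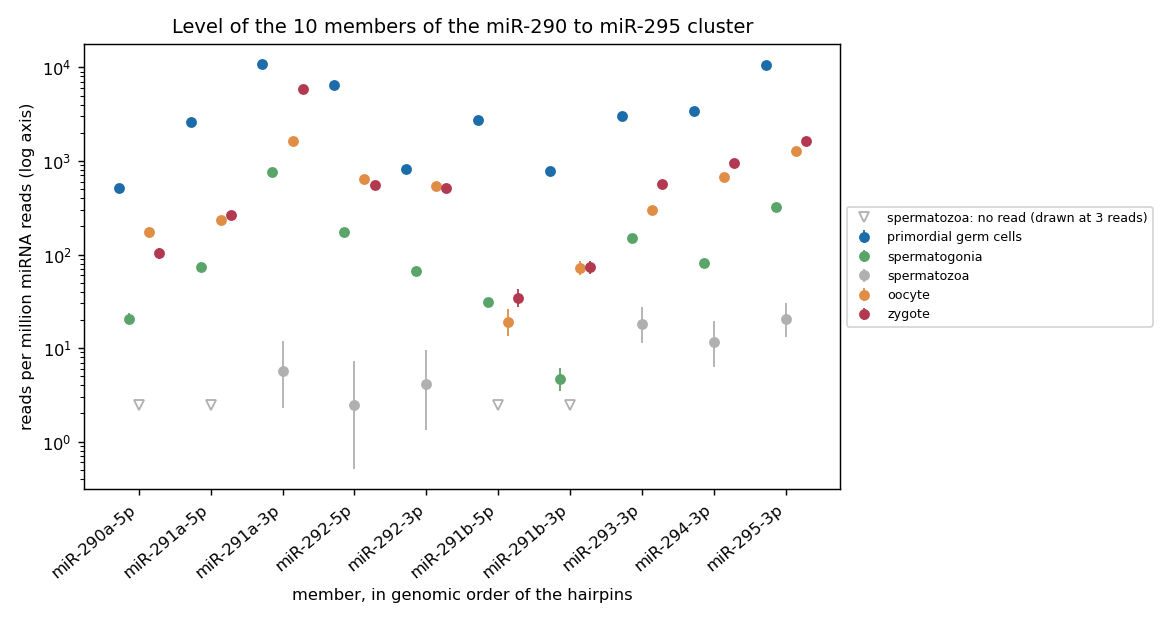
Level of each member in each library in RPM (log axis), with exact 95% Poisson intervals of the counts; open triangles are members without a read, drawn at 3 reads. Primordial germ cells are highest for each of the 10 members (10762 RPM for miR-291a-3p, 513 for miR-290a-5p), and spermatozoa are lowest.

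The first comparison set spermatogonia against primordial germ cells, from which they descend. The sum was 24.9-fold lower in spermatogonia [24.5 to 25.2], and 38.5-fold with DESeq2 size factors or 40.8-fold with the deposited column. All 10 members were at least 4-fold lower, against 12.6% of the 530 miRNAs that reached 100 reads summed over these libraries. miR-291b-3p, with 50 reads in spermatogonia, reached that minimum only through primordial germ cells, so a minimum of 100 reads in each library was added after seeing the data. By that minimum 9 of 9 members were lower, against 9.70% of 361 miRNAs, with a median log2 ratio of -5.04 for the members and 0.57 for all. The size of the difference varied between members. The smallest differences were those of miR-292-3p, 12.3-fold lower in spermatogonia [11.4 to 13.3], and miR-291a-3p, 14.3-fold lower [13.97 to 14.61]. At the other end were the 2 arms of miR-291b. miR-291b-5p was 88.3-fold lower [79.2 to 98.7] and miR-291b-3p 166-fold lower [126 to 224]. Both are near-identical to other members, and the part of read sharing in these folds was not tested. The remaining 6 members lay between 20.1-fold (miR-293-3p) and 42.1-fold (miR-294-3p). Of all miRNAs past 4-fold, 67.0% were higher in spermatogonia (136 against 67 lower), and 54.6% with DESeq2 size factors (106 and 88) or 50.0% with the deposited normalised column (98 and 98), while all 10 members stayed lower under each scaling. The muscle-like list moved the other way in this pair, with sums of 233110 RPM in spermatogonia and 9261 in primordial germ cells. So did the endothelial list (9053 and 1051 RPM) and the erythroid list (2015 and 211). The leukocyte (304 and 588) and epithelial lists (1071 and 1462) were lower in spermatogonia. The part of other cells in the members' difference was not tested.

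In spermatozoa the members had 76 reads in all. miR-295-3p had 25 of them, miR-293-3p 22, miR-294-3p 14, miR-291a-3p 7, miR-292-3p 5 and miR-292-5p 3. Against spermatogonia the sum was 26.9-fold lower in spermatozoa [21.5 to 34.1], with 62.5 RPM in spermatozoa and 1679 in spermatogonia. This value depends on the scaling: it was 195-fold over all 4 classes, 117-fold with the deposited column and 16.7-fold with DESeq2 size factors, and the members' own folds below move by the same factors. For 9 members the pair held at least 100 reads, and they were at least 4-fold lower in spermatozoa, against 37.2% of 471 miRNAs. These members passed the minimum through spermatogonia alone, which by itself favours such differences, so the count says nothing more about them. Among members with reads in spermatozoa, the least reduced were miR-294-3p, 6.97-fold lower in spermatozoa [4.13 to 12.8], and miR-293-3p, 8.26-fold lower [5.44 to 13.2]. Members at 0 reads there have only lower bounds and are not ranked. Their exact intervals start at 1.49-fold for miR-291b-3p and 6.75-fold for miR-290a-5p. miR-291a-3p was 131-fold lower [63.5 to 326]. The split of all miRNAs past 4-fold, 70 higher and 175 lower in spermatozoa, was 18 and 358 over all 4 classes, 25 and 312 with the deposited column, and 91 and 143 with DESeq2 size factors.

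Set against the oocyte, the sum was 89.1-fold lower in spermatozoa [71.1 to 113]. For members at 0 reads in spermatozoa, the lower end of the exact interval of the ratio gives a bound. miR-291a-5p was at least 77.4-fold lower than in the oocyte, miR-290a-5p at least 56.4-fold and miR-291b-3p at least 23.5-fold. For miR-291b-5p, with 38 oocyte reads, the bound was only 5.93-fold. The background was 26.3% of 300 miRNAs at least 4-fold lower in spermatozoa and 26.7% higher, from which nothing is read here for the same reason. The zygote stood 168-fold above spermatozoa in the sum [134 to 213], with 10486 RPM in the zygote and 62.5 in spermatozoa, and 325-fold with the deposited column. Between this pair 26.3% of 308 miRNAs passed 4-fold on the side of the zygote. Among members with reads in spermatozoa, the smallest ratio was that of miR-293-3p, 31.2-fold higher in the zygote [20.5 to 50.0]. Members at 0 reads there are not ranked, and the interval of miR-291b-5p starts at 11.1-fold. All miRNAs past 4-fold split into 81 higher and 79 lower in the zygote, or 105 and 48 with the deposited column.

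Zygotes were compared with oocytes, the cells they come from. The summed level was 1.88-fold higher in the zygote [1.84 to 1.93]. Most of this rested on miR-291a-3p, with 5814 RPM in the zygote and 1644 in the oocyte, a ratio of 3.54 [3.40 to 3.67]. By miRNA reads, that member accounted for 84.7% of the difference in the summed level. This share and the ratio without the member both depend on the scaling. Without it the sums were 4673 RPM in the zygote and 3920 in the oocyte, a ratio of 1.19 [1.16 to 1.23]. The next largest ratios were 1.88 for miR-293-3p [1.71 to 2.08] and 1.81 for miR-291b-5p [1.22 to 2.75]. The other AAGUGCU members differed less than miR-291a-3p, with 1.41 for miR-294-3p [1.32 to 1.51] and 1.28 for miR-295-3p [1.22 to 1.35]. miR-290a-5p was 1.68-fold lower in the zygote [1.42 to 1.98] and miR-292-5p 1.16-fold lower [1.07 to 1.25], but with the deposited column, which raises each log2 ratio of this pair by 0.75, the log2 ratios were 0.01 for miR-290a-5p and 0.54 for miR-292-5p. That column put the summed level 3.18-fold higher in the zygote. The intervals of miR-292-3p (0.941 [0.866 to 1.02]) and miR-291b-3p (1.01 [0.807 to 1.27]) include 1. No member was 4-fold apart, against 2.01% of 299 miRNAs higher and 1.34% lower in the zygote. miR-291a-3p passed 4-fold over all 4 classes and with the deposited column, with which all miRNAs split into 16 higher and 1 lower in place of 6 and 4.

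**Figure D2:**
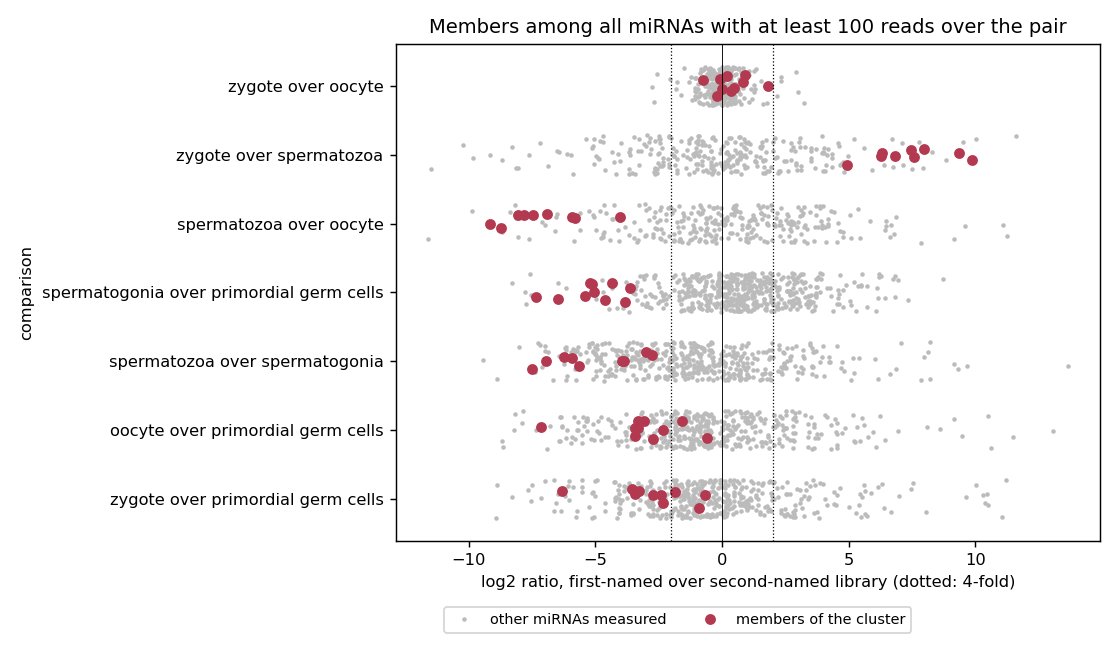
Log2 ratio of the first-named over the second-named library for each comparison, in members of the cluster (red) and other miRNAs with at least 100 reads over the pair (grey); the height within a row is random. Members without a read in spermatozoa sit where the added 0.5 reads put them; zygote over oocyte keeps all 10 members within 4-fold, and spermatogonia over primordial germ cells puts all 10 beyond it.

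The egg libraries were also set against primordial germ cells, the other stage with high levels. In the oocyte the sum was 7.50-fold lower [7.36 to 7.64] and in the zygote 3.98-fold lower [3.93 to 4.03], and all 10 members were lower in both under each scaling. At least 4-fold lower were 8 members in the oocyte, against 29.0% of 445 miRNAs (18.7% were higher), and 7 in the zygote, against 26.2% of 450 (17.1% were higher). In both, miR-291b-5p reached the minimum only through primordial germ cells, since it had 38 (oocyte) and 79.5 (zygote) reads in the egg libraries. With 100 reads asked of each library, 7 of 9 members were at least 4-fold lower in the oocyte, against 12.5% of 224 miRNAs, and 6 of 9 in the zygote, against 12.2% of 230. The median log2 ratio over these 9 was -3.08 in the oocyte and -2.41 in the zygote, where that of all such miRNAs was 0.18 and 0.06. Both comparisons share the primordial germ cell library. The largest difference was that of miR-291b-5p, 145-fold lower in the oocyte [106 to 205] and 80.3-fold lower in the zygote [64.1 to 101]. The smallest was that of miR-292-3p, 1.50-fold lower in the oocyte [1.41 to 1.59] and 1.59-fold lower in the zygote [1.50 to 1.69]. miR-291a-3p was 6.55-fold lower in the oocyte [6.32 to 6.78] but 1.85-fold lower in the zygote [1.82 to 1.88]. Scaling to all 4 classes, where miRNAs held 4.65% of the oocyte's and 5.38% of the zygote's reads but 45.2% in primordial germ cells, moves each log2 ratio to primordial germ cells by -3.28 in the oocyte and by -3.07 in the zygote, so that the sum was 72.9-fold lower in the oocyte and 33.4-fold in the zygote. With the deposited column it was 46.7-fold lower in the oocyte and 14.7-fold in the zygote. All miRNAs past 4-fold then split into 18 higher and 343 lower in the oocyte (83 and 129 by miRNA reads) and 26 and 343 in the zygote (77 and 118). With the deposited column they were 23 and 311 in the oocyte and 35 and 269 in the zygote.

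The make-up of the cluster, the share of each member in the summed reads, does not depend on the scaling of libraries. It does depend on how reads shared between near-identical members were divided. Spermatogonia, without fractions of a read, may differ from the other libraries in this. In the oocyte and spermatozoa the members' own values were whole as well, while other miRNAs there held fractions. The part of read division in the shares was not tested. The share of miR-291a-3p was 25.8% in primordial germ cells [25.7 to 25.9], 44.9% in spermatogonia [44.1 to 45.6], 29.5% in the oocyte [28.7 to 30.4] and 55.4% in the zygote [54.8 to 56.1]. In spermatozoa it took 9.21% of 76 reads [3.78 to 18.1], where miR-295-3p with 32.9% [22.5 to 44.6] and miR-293-3p with 28.9% [19.1 to 40.5] were higher. The 3 AAGUGCU members together held most reads in every library. Their share was 59.5% in primordial germ cells, 69.0% in spermatogonia and 60.5% in spermatozoa [48.6 to 71.6], with 64.3% in oocytes and 79.9% in zygotes. The CUCAAAC pair (miR-290a-5p and miR-292-5p) held 16.7% in primordial germ cells, 11.7% in spermatogonia and 3.95% in spermatozoa, with 14.6% in oocytes and 6.27% in zygotes. For the AUCAAAG pair (miR-291a-5p and miR-291b-5p) the share was 12.8% in primordial germ cells and 6.28% in spermatogonia, with 4.58% in the oocyte and 2.88% in the zygote. It had no read in spermatozoa, where the exact interval of 0 of 76 reads ends at 4.74%. Zygote and oocyte thus differed in make-up, in that the AAGUGCU share was higher in the zygote and the shares of both 5p seed pairs were lower, each beyond counting error. In level, the AUCAAAG pair stood at 302 RPM in the zygote and 255 in the oocyte, so that its lower share in the zygote went with a larger summed level and not with a lower level of the pair. The CUCAAAC pair stood at 657 RPM in the zygote and 814 in the oocyte, an order that depends on the scaling. With the deposited column the log2 ratio of zygote over oocyte was 0.01 for miR-290a-5p and 0.54 for miR-292-5p.

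**Figure D3:**
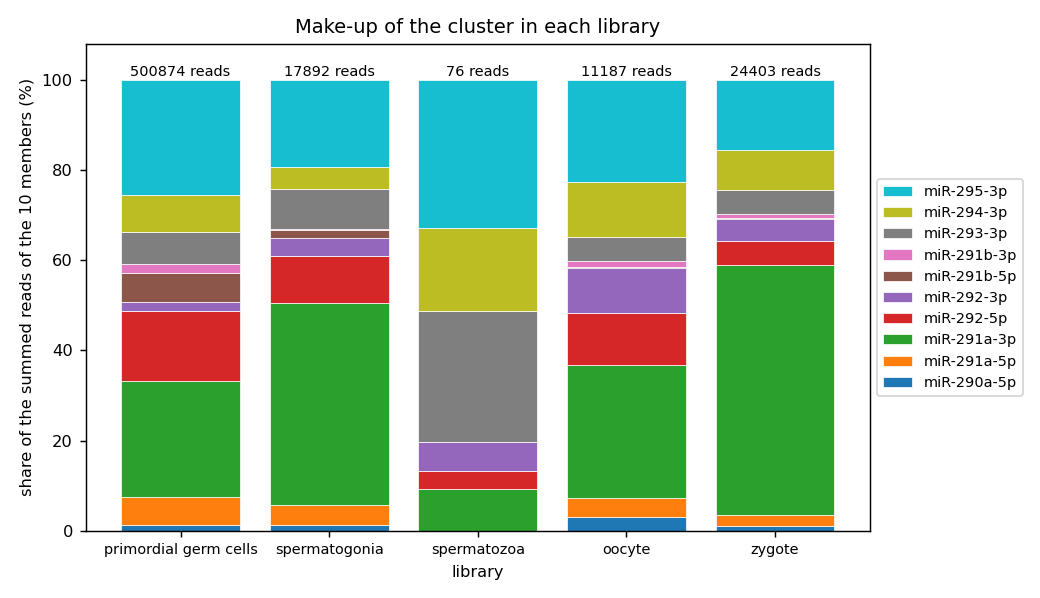
Share of each member in the summed reads of the 10 members (%), by library, with the summed reads above each bar. miR-291a-3p (green) is the widest segment in the zygote (55.4%) and in spermatogonia (44.9%), while miR-291a-3p and miR-295-3p are about equal in primordial germ cells (25.8% and 25.6%); the spermatozoa bar rests on 76 reads.

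Which arm of a hairpin is kept can be read in the same way, free of scaling. Over the members, 5p arms held 29.5% of the reads in primordial germ cells [29.4 to 29.6], 17.9% in spermatogonia [17.4 to 18.5], 19.2% in the oocyte [18.5 to 20.0] and 9.15% in the zygote [8.79 to 9.52]. Both arms are members only for miR-291a, miR-291b and miR-292. This share therefore also follows the choice of entries and the mix of hairpins, and is no measure of arm use alone. The hairpin of miR-291b differed most between libraries. Its 5p arm took 77.9% of the reads of both arms in primordial germ cells [77.5 to 78.3] and 86.9% in spermatogonia [83.1 to 90.1], but 20.8% in the oocyte [15.1 to 27.4] and 31.9% in the zygote [26.4 to 38.3]. The leading arm was thus the 5p arm in primordial germ cells and spermatogonia and the 3p arm in both egg libraries. In reads these were 32915.5 on the 5p and 9359 on the 3p arm in primordial germ cells, 331 and 50 in spermatogonia, 38 and 145 in the oocyte, and 79.5 and 170 in the zygote. For miR-292 the 5p arm took 88.8% in primordial germ cells [88.6 to 89.0], 72.6% in spermatogonia [70.9 to 74.3], 54.1% in the oocyte [52.1 to 56.1] and 52.0% in the zygote [50.0 to 54.0]. The arms of miR-292 were thus close to even in the egg, and its intervals for oocyte and zygote overlap. For miR-291a the 3p arm led throughout, and the 5p share was 19.4% in primordial germ cells, 8.99% in spermatogonia, 12.5% in the oocyte [11.5 to 13.6] and 4.40% in the zygote [4.06 to 4.75].

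Since the 5p arms of miR-291a and miR-291b are nearly identical, their hairpins were also pooled, an alternative chosen after seeing the data. The pooled 5p share was 31.6% in primordial germ cells [31.4 to 31.8], 12.2% in spermatogonia [11.6 to 12.9], 12.9% in the oocyte [11.89 to 14.01] and 4.87% in the zygote [4.53 to 5.24]. Pooled, primordial germ cells had the highest and the zygote the lowest 5p share, and the intervals of spermatogonia and oocyte overlapped. The pooled share is mostly that of miR-291a, since miR-291b gave 381 of 9203 pooled reads in spermatogonia and 183 of 3962 in the oocyte. It therefore cannot show whether the gap between these libraries seen for miR-291b alone holds. Pooling does not show how the reads of the 2 5p arms divide, and the part of read sharing in the miR-291b shares was not tested.

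**Figure D4:**
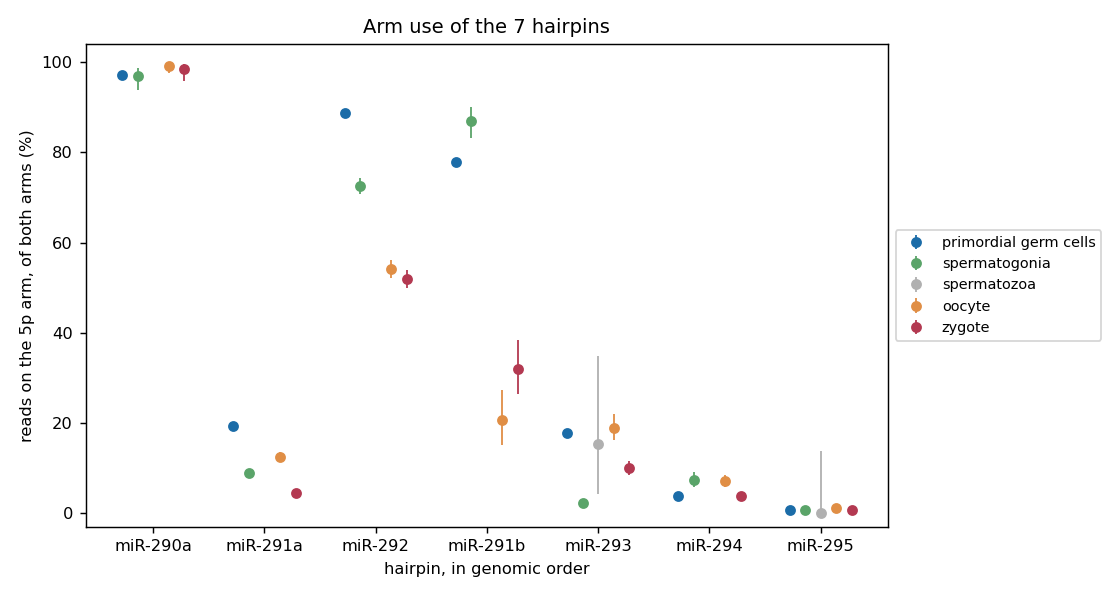
Share of reads on the 5p arm among reads of both arms (%), for hairpins with at least 20 reads over both arms in a library, with exact binomial 95% intervals. miR-291b is above 75% in primordial germ cells and spermatogonia (77.9% and 86.9%) and under 40% in oocyte and zygote (20.8% and 31.9%); miR-290a stays near the top and miR-295 near 0 in each library shown.

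The remaining 4 entries of the cluster completed the other hairpins. miR-293-5p, whose seed is CUCAAAC as in miR-290a-5p, had 652 RPM in primordial germ cells, 3.38 in spermatogonia and 3.29 in spermatozoa, with 70.1 in oocytes and 62.3 in zygotes. The spermatozoa value rests on 4 reads [0.896 to 8.42 RPM]. The share of miR-293-5p in its hairpin was 17.8% in primordial germ cells [17.5 to 18.2] and 19.0% in the oocyte [16.2 to 22.0], 9.93% in the zygote [8.44 to 11.6], and 2.21% in spermatogonia [1.55 to 3.05]. In spermatozoa it was 15.4% of 26 reads [4.36 to 34.9]. The hairpins of miR-290a, miR-294 and miR-295 had the same leading arm wherever there were enough reads. The 5p arm of miR-290a held 96.9% to 99.1% of its reads, that of miR-294 held 3.73% to 7.37%, and that of miR-295 at most 1.09%. miR-290a-3p, with 15.5 RPM in primordial germ cells and at most 1.72 RPM elsewhere, was the lowest entry of the cluster in primordial germ cells, spermatogonia, oocyte and zygote. Along the locus, the levels of the leading arms did not fall or rise steadily from Mir290a to Mir295: in primordial germ cells they were 513, 10762, 6462, 2742, 3004, 3381 and 10682 RPM in genomic order. In the zygote the same order gave 103, 5814, 555, 72.9, 565, 944 and 1619 RPM. The lowest leading arm was at Mir291b in the zygote and at Mir290a in primordial germ cells.

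**Figure D5:**
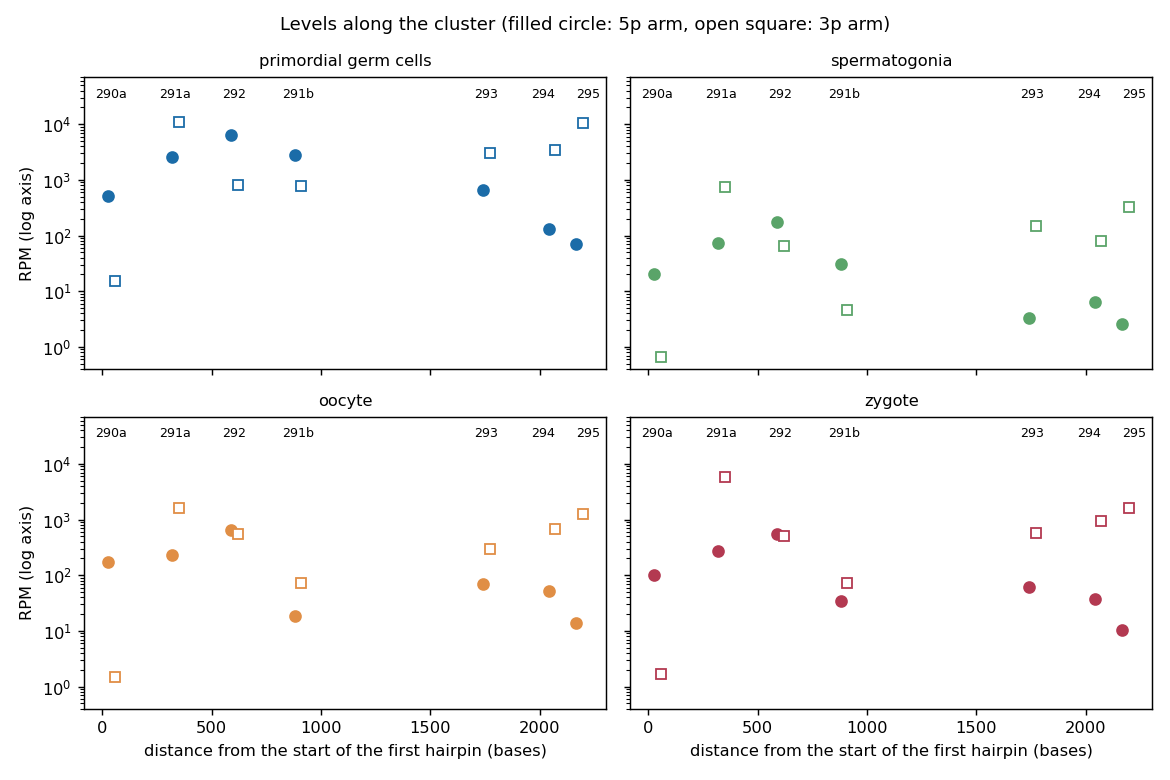
Level of the 5p (filled circles) and 3p arms (open squares) of the 7 plus-strand hairpins in RPM (log axis), against the distance in bases from the start of Mir290a; arms are drawn slightly apart. miR-291a-3p and miR-295-3p, at 10762 and 10682 RPM, lead in primordial germ cells and miR-291a-3p, at 5814 RPM, in the zygote.

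Other miRNAs found in RefSeq with the same seed were scarce. miR-302b-3p and miR-302d-3p, of a second pluripotency cluster known from the later embryo, carry AAGUGCU as well. In primordial germ cells miR-302b-3p had 10.03 RPM [8.29 to 11.95] and miR-302d-3p 3.25 RPM [2.31 to 4.44], against 24825 RPM for the 3 AAGUGCU members of the miR-290 to miR-295 cluster. All 5 listed entries of that second cluster (miR-302a-3p to miR-302d-3p and miR-367-3p) had reads in primordial germ cells, with a sum of 20.9 RPM. Outside that library the only reads of these 5 entries were 4 of miR-302b-3p in the zygote, or 1.72 RPM [0.468 to 4.40]. miR-350-5p, which has the seed of miR-291b-3p, differed from the cluster in its order, with 17.6 RPM in spermatogonia and 5.83 in primordial germ cells.

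The 5 miRNAs whose pattern over the 5 libraries was most like that of the summed members were miR-298-5p, miR-335-3p, miR-129-5p, miR-183-5p and miR-182-5p. Likeness was the root mean square difference between profiles of log2(RPM + 1), each centred on its own mean, and the 5 libraries are the only points. It was 0.72 for miR-298-5p, 0.83 for miR-335-3p, 0.99 for miR-129-5p, 1.22 for miR-183-5p and 1.25 for miR-182-5p. For the members themselves it ran from 0.38 (miR-295-3p) to 1.62 (miR-291b-5p). Each member is part of the sum it was set against, so its likeness is partly built in. miR-298-5p had 348 RPM in primordial germ cells, 53.7 in spermatogonia and none in spermatozoa, with 79.6 in oocytes and 89.0 in zygotes.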

How the data were processed

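Tables were used for 5 libraries, 4 per library. Each deposited table gives reads, treated here like expected counts because some hold fractions, and a signal that the file headers call TMM-normalised. In the deposited values that signal is the reads multiplied by a constant of the library (0.672 to 1.37). Bowtie 0.12.7, DESeq and mm10 are named without roles, per the submitters' processing notes. No source used here gives the counting rules.

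Reads were scaled to the library's miRNA total. Totals of all 4 classes left out 5 or 6 snoRNA entries that name no single snoRNA (0.551% to 4.59% of that table). Log2 ratios used a pseudocount of 0.5 reads and a minimum of 100 reads summed over both libraries. Intervals are exact Poisson, Clopper-Pearson, or for ratios conditional on the sum of both counts, after rounding to whole reads (Python 3.11.15, scipy 1.17.1). Calls and intervals were checked on simulated Poisson counts for zygote over oocyte and spermatogonia over primordial germ cells. Only entries outside the cluster with many reads were scored, so counts as low as those in spermatozoa were not checked. Alternatives used size factors of DESeq2 1.42.0 or TMM factors of edgeR 4.0.16 on rounded reads, all 4 classes, and the deposited column. Others were a pseudocount of 5, minimums of 20 and 1, and totals without the most abundant entries. Those totals left out, in every library, each entry among the 5 highest of any library.

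Members and lists were chosen with earlier results of these data known. Named were all 10 members, the cluster's other entries, seed relatives, the fixed lists and the 5 miRNAs of most similar pattern among those outside the cluster with at least 100 reads. With 1 library per group DESeq2 and edgeR gave factors only.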

Additional observations from a re-analysis of the deposited data

How the results depend on the processing

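The number of members at least 4-fold apart stayed within 1.5 times of that reported in every comparison and alternative, with 1 exception: between zygote and oocyte it was 0, and 1 (miR-291a-3p, higher) over all 4 classes and 1 with the deposited normalised column. Of 536 member log2 ratios recomputed, 355 stayed within their counting interval and 181 did not, and no ratio past 4-fold changed sign. The 355 include every ratio from alternatives that changed only the minimum of reads, which does not enter a log2 ratio. Those ratios were the same by construction and are no check. For members without a read in spermatozoa, the interval has no limit on the side of a larger difference. The 355 therefore overstate how stable the ratios were. The sign differed for 6 ratios, all between zygote and oocyte. They were miR-292-5p and miR-292-3p over all 4 classes and with the deposited column. The others were miR-290a-5p with the deposited column and miR-291b-3p without the most abundant entries. No paired analysis was possible because each cell type had 1 library, and for the same reason no library could be left out. Depth limits spermatozoa most, where the members rest on 76 reads. With 100 reads asked of each library, an alternative added after seeing the data, no member was left in the pairs with spermatozoa.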

Other observations

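Lists of miRNAs that act on the cell cycle or on differentiation timing were measured beside the cluster. The 6 miRNAs of the miR-17 seed, known to promote proliferation, summed to 81509 RPM in primordial germ cells, 11046 in spermatogonia and 9826 in spermatozoa, with 10933 in oocytes and 11314 in zygotes. All 6 were at least 4-fold lower in spermatogonia than in primordial germ cells under each scaling, where 12.6% of all miRNAs were by miRNA reads. Between zygote and oocyte none of the 4 measured differed 4-fold. The let-7 list, which is known to oppose the stem cell state, summed to 6486 RPM in primordial germ cells, 88062 in spermatogonia and 111663 in spermatozoa, with 206890 in oocytes and 240347 in zygotes. All 9 let-7 entries were at least 4-fold higher in spermatogonia than in primordial germ cells under each scaling, where 25.7% of all miRNAs were by miRNA reads. In the oocyte all 9 were at least 4-fold higher than in primordial germ cells by miRNA reads, against 18.7% of all miRNAs, but 5 over all 4 classes or with the deposited column, where 1 turned to lower.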
